A study of Homo sapiens with 4 samples.

Results

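Heat shock proteins and their partners are chaperones, proteins that help others to fold and that hold or refold them when cells are stressed. The set described here has 33 genes of this kind, out of 26255 gene symbols measured, taken by symbol: the heat shock transcription factors HSF1 and HSF2, 9 stress-inducible chaperone genes, 12 constitutive cytosolic ones, 3 of mitochondria and 7 subunits of the chaperonin CCT. HSPA9, HSPD1 and HSPE1 work in mitochondria, so the set is not wholly cytosolic. All 33 were found in the files. Messenger RNA was sequenced from MIA PaCa-2 and PSN-1, established human lines from pancreatic tumours, after transfection of either miR-4800-3p mimic or a scrambled negative control, and the aim given was to look for the microRNA's target messages. There was 1 library for each pair of line and oligonucleotide, 4 in all, so nothing was replicated inside a line. The labels describe no untransfected cells, doses or times.

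In a resting cell HSF1 is held inactive by chaperones. Misfolded protein draws the chaperones away, HSF1 forms trimers, binds heat shock elements in DNA and raises HSPA1A, HSPA1B, DNAJB1, HSPH1 and their like, while the constitutive chaperones keep folding new protein at all times. J-domain proteins (the DNAJ genes) deliver clients to HSP70 and drive its ATP cycle, BAG proteins release the nucleotide, STIP1 bridges HSP70 to HSP90, and CCT is a double ring that folds tubulin and actin. Tumour cells often carry high levels of these proteins.

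Values are FPKM, fragments scaled to transcript length and library size, which allows levels of different genes to be set side by side. Changes are log2 of (mimic FPKM + 1) minus log2 of (scramble FPKM + 1), taken where the 2 libraries of a line averaged 1 FPKM or more (measured genes), and the scale understates changes of low genes. The smallest non-zero values of single-transcript genes put 1 FPKM at an estimated 12.6 to 15.9 fragments per kb of transcript. A 2 kb transcript at 50 FPKM then rested on about 1264 fragments in the shallowest library, so that counting alone leaves an SE of 0.057 on a log2 ratio, without the error between cultures. The labels call both lines epithelial. Of 8 epithelial genes, KRT8, KRT18 and KRT19 lay between 78.2 and 923 FPKM in the 4 libraries. CDH1 (at most 1.51 FPKM), CLDN4 (at most 6.21) and CLDN7 (at most 0.445) were low in both lines. MIA PaCa-2 also had KRT7 at 0 and EPCAM at no more than 0.139 FPKM, where PSN-1 had at least 287 and 24.1 FPKM. Of 4 mesenchymal genes, VIM, a filament gene, lay between 1144 and 4401 FPKM, ZEB1 between 19.8 and 30.5 and CDH2 at no more than 0.0514. FN1 was at no more than 0.0696 FPKM in MIA PaCa-2 and at 308 and 353 FPKM in PSN-1 scramble and mimic. Of the markers of other cell types, the 6 leukocyte genes summed to 21.0 and 35.4 FPKM in MIA PaCa-2 and 41.1 and 42.3 FPKM in PSN-1, mostly CD68, with CD3E at 0 throughout and PTPRC at 0 in MIA PaCa-2. The 6 fibroblast genes summed to 67.0 and 84.7 against 80.4 and 99.0 FPKM. The 4 endothelial genes summed to at most 0.0273 FPKM in MIA PaCa-2 and 7.99 FPKM in PSN-1. The 4 acinar genes were all at 0 in MIA PaCa-2 and summed to 17.7 and 21.4 FPKM in PSN-1 mimic and scramble, nearly all PRSS1, with CTRC and AMY2A at 0 throughout. The part of such transcripts in the differences between the lines was not tested.

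The mature microRNA that was transfected as a mimic is shown with its seed, bases 2 to 8, in capitals (RefSeq, GRCh38.p14, chr4:2250091-2250109, minus strand), because the seed decides which messages it can pair with.
miR-4800-3p: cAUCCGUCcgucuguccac
The matching site in a message is GACGGATA or either 7-base part of it. None of the 33 genes holds any of them in its longest annotated 3' UTR, nor elsewhere in that transcript (GENCODE 29 on GRCh38, while the deposited values rest on hg19). Over all 18495 symbols with an annotated protein-coding transcript, 2.14% have such a site in the 3' UTR. The absence of these letters says nothing about other ways in which the genes could respond.

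The heat shock element, the site of HSF1, is a run of inverted GAA units, searched as GAANNTTCNNGAA (3 units) and as GAANNTTC or TTCNNGAA (2 units, which the longer form contains), on both strands. The windows run from 250 bases before to 50 after each annotated start (RefSeq, GRCh38.p14). Of the 33 genes 31 had a window, and HSF1 and HSPA14 did not. The 3-unit form was present in 6 of the 31 (19.4%), against 0.608% of 27305 genes with windows, and the 2-unit form in 18 (58.1%) against 16.2%. HSP90AA1, HSPA8, HSP90AB1, DNAJA1, DNAJB6 and HSPD1 held the longer form. Each stretch below is 60 bases from the part of a window before the start site, with the matching letters in capitals. They come from a choice of genes with a match, and others with one, such as DNAJB1, are not shown.
HSPA1A: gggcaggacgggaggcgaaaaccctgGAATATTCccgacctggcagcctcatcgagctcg
HSPA1B: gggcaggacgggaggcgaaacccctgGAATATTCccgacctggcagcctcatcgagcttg
HSP90AA1: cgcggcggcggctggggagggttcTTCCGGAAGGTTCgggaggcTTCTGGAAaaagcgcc
HSP90AB1: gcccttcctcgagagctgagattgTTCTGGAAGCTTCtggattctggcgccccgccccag
HSPA8: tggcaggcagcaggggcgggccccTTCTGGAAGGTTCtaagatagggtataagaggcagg
HSPB1: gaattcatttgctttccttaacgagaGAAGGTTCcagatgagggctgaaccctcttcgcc
HSPD1: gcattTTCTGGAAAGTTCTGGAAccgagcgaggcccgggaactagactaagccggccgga
CCT2: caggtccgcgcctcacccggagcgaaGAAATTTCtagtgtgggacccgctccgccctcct
They lie at chr6:31815411-31815470 (plus strand) for HSPA1A, chr6:31827607-31827666 (plus) for HSPA1B, chr14:102087097-102087156 (minus) for HSP90AA1, chr6:44247807-44247866 (plus) for HSP90AB1, chr11:123062156-123062215 (minus) for HSPA8, chr7:76302465-76302524 (plus) for HSPB1, chr2:197500031-197500090 (minus) for HSPD1 and chr12:69585774-69585833 (plus) for CCT2. HSPA1A and HSPA1B carry the same GAATATTC, at 106 to 99 and 105 to 98 bases before their starts. A match is a description of letters and not a measured binding site. The search found neither form in the windows of HSPH1 and BAG3, 2 genes of the stress-inducible class, so exact letters in a short window miss genes of that class.

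The widest contrast in the set was between the lines and not between oligonucleotides. All 33 genes together took 3.12% of the summed FPKM in the MIA PaCa-2 scramble library and 2.45% in its mimic library, against 0.99% and 1.22% in the scramble and mimic libraries of PSN-1. The stress-inducible class made up most of that gap, with 1.65% and 1.23% of the summed FPKM in MIA PaCa-2 scramble and mimic and 0.209% and 0.301% in PSN-1. The CCT subunits took 0.218% to 0.272% in every library.

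**Figure D1:**
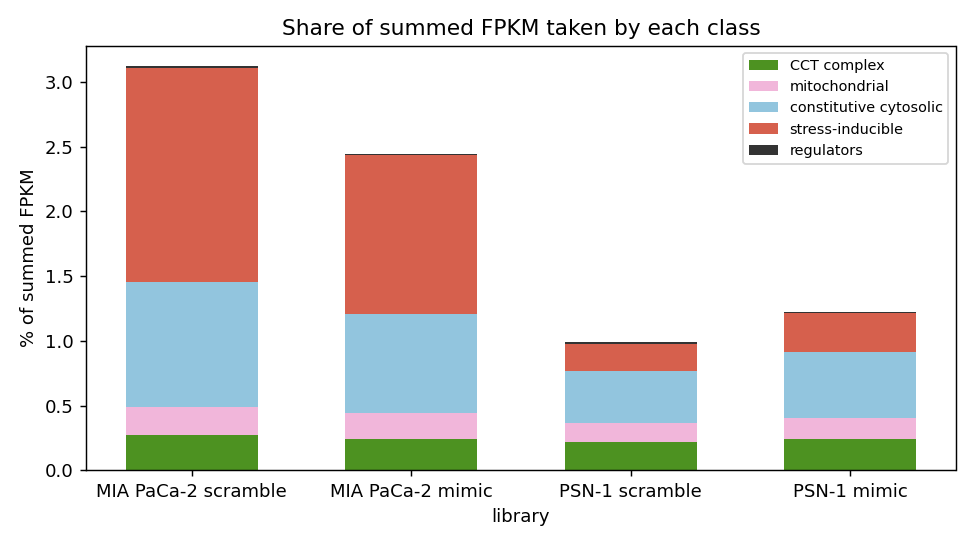
Share of the summed FPKM (y axis, %) taken by each class of chaperone genes in the 4 libraries (x axis, 1 bar each, no replicates). The stress-inducible segment fills 1.65% and 1.23% in the MIA PaCa-2 libraries and 0.209% and 0.301% in the PSN-1 libraries, while the CCT segment is of similar height in all 4.

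HSPA1A and HSPA1B, neighbouring genes that encode the main stress-induced HSP70, showed the largest gap. HSPA1A was at 1055 FPKM in the MIA PaCa-2 scramble library, 687 in its mimic library, and 9.26 and 13.6 FPKM in the scramble and mimic libraries of PSN-1. HSPA1B was at 467 and 379 FPKM in MIA PaCa-2 scramble and mimic and at 13.5 and 19.5 in PSN-1. Differences between the lines were common over all genes, and the shares called are given below. The pair is nearly identical in sequence, so reads can be assigned to the wrong copy, and their sum is the safer measure: 1522 and 1066 FPKM in MIA PaCa-2 scramble and mimic against 22.8 and 33.2 FPKM in PSN-1, 66.8-fold higher in MIA PaCa-2 among scramble libraries and 32.1-fold among mimic libraries. HSPA8, the constitutive HSP70, differed far less, with 2532 and 1978 FPKM against 844 and 1153 FPKM. As a result the inducible HSP70 pair stood at 0.601 of the HSPA8 level in the MIA PaCa-2 scramble library and at 0.027 in that of PSN-1.

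The other stress-inducible genes except HSPB8, described further on, were also higher in MIA PaCa-2. DNAJB1, the J-domain partner that HSF1 induces with HSP70, was at 2426 and 1945 FPKM in MIA PaCa-2 scramble and mimic and at 144 and 214 FPKM in PSN-1, a 16.9-fold gap among scramble libraries. In the MIA PaCa-2 scramble library HSPA8 and DNAJB1 ranked 16 and 17 among all 26255 symbols. DNAJA1, a more constitutive J-domain gene, was at 347, 274, 186 and 281 FPKM in the same order, and there the ranges of the lines overlapped. HSPB1, the small heat shock protein HSP27, was at 1582 and 1047 against 249 and 212 FPKM. BAG3, which links HSP70 to small heat shock proteins and autophagy, was at 325 and 251 against 55.8 and 60.6 FPKM. HSPH1, an HSP110 that releases the nucleotide from HSP70, was at 286 and 259 against 53.4 and 72.4 FPKM. DNAJB4, another J-domain protein, was at 91.7 and 57.6 against 16.5 and 20.9 FPKM. Differences between the lines were common over all genes: limma called 27.5% of the 10678 genes tested higher in MIA PaCa-2 and 24.2% higher in PSN-1.

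The inducible and constitutive HSP90 genes were closer to each other. HSP90AA1, the inducible form, was at 1959 and 1638 FPKM in MIA PaCa-2 scramble and mimic and at 475 and 862 FPKM in PSN-1. HSP90AB1, the constitutive form, was at 1146 and 898 against 375 and 409 FPKM. Their ratio was 1.71 and 1.82 in MIA PaCa-2 scramble and mimic, 1.27 in PSN-1 scramble and 2.11 in PSN-1 mimic. The ratio was thus similar in the MIA PaCa-2 libraries and higher with the mimic in the PSN-1 pair, without replicates.

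A few genes were higher in PSN-1, in both of its libraries. HSPB8, a small heat shock protein that works with BAG3, was listed at 0 in both MIA PaCa-2 libraries and at 3.47 and 1.36 FPKM in PSN-1 scramble and mimic. HSPA2, an HSP70 best known from testis, was at 0.398 and 0.109 FPKM in MIA PaCa-2 and at 3.48 and 5.22 in PSN-1. BAG1, an HSP70 nucleotide exchange factor, was at 5.29 and 6.26 against 12.2 and 17.8 FPKM. HSPA14 (27.1 and 20.1 against 31.6 and 27.4 FPKM) and DNAJC7 (55.4 and 59.8 against 64.5 and 69.7 FPKM) had smaller gaps. CCT2 was at 76.6 and 67.9 FPKM in MIA PaCa-2 and at 142 and 148 in PSN-1, the one CCT subunit with a clear gap in that direction.

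**Figure D2:**
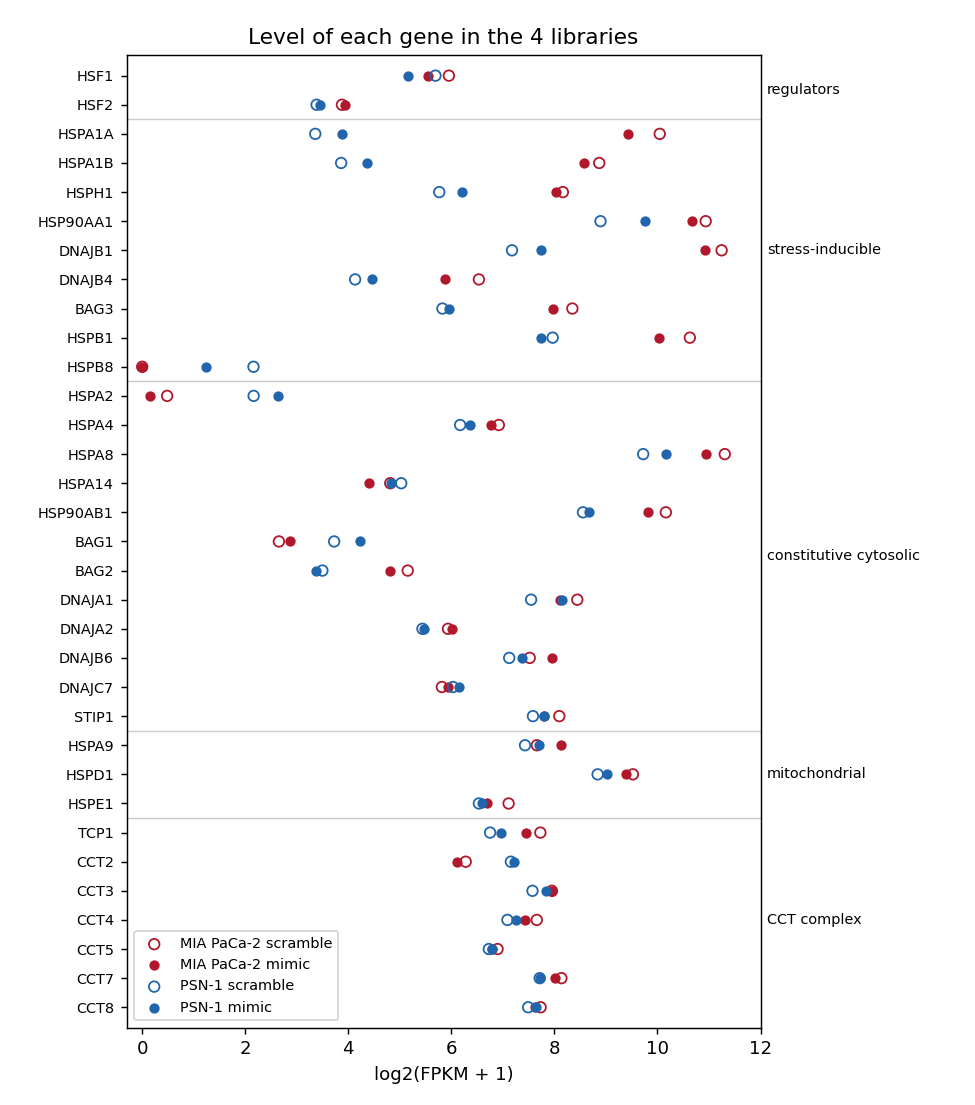
Level of each of the 33 genes, log2(FPKM + 1), on the x axis, in MIA PaCa-2 (red) and PSN-1 (blue), open circles for scramble and filled for mimic, 1 library a circle. HSPA1A, HSPA1B and DNAJB1 show the widest gaps among the stress-inducible genes higher in MIA PaCa-2, and most CCT subunits lie close together.

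The lines were compared with limma, a linear model fitted to all genes, on log2(FPKM + 1) with the oligonucleotide as a block. This leaves 1 residual degree of freedom for a gene, which is how far the lines disagree in their mimic change. To this limma adds 4.75 prior degrees of freedom, drawn from the spread of all genes. The p-values thus rest only on spread between these 4 libraries, which may be technical. Each line's libraries carry neighbouring library names, so line and library preparation cannot be told apart. Of 10678 genes tested, 27.5% were called higher in MIA PaCa-2 and 24.2% higher in PSN-1 at an adjusted p under 0.05 (limma, Benjamini-Hochberg over all genes). Of the 31 chaperone genes tested, 20 (64.5%) were called higher in MIA PaCa-2, 2 (6.45%) higher in PSN-1 and 9 were not called. HSPB8 and HSPA2 were too low in MIA PaCa-2 to enter. Without a filter on low values this fit called no gene of any kind, although 17 of the 33 (51.5%) were at an unadjusted p under 0.05, as were 29.7% of all 26255 genes.

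All 8 stress-inducible genes tested were called higher in MIA PaCa-2, with a median difference, PSN-1 minus MIA PaCa-2, of -2.38 (median of all genes -0.035). HSPA1A had a log2 difference of -6.12 (SE 0.26, adjusted p = 0.000124 in limma) and HSPB1 of -2.48 (SE 0.10, adjusted p = 0.000124). The smallest of the 8 was HSP90AA1, with -1.48 (SE 0.24, adjusted p = 0.00443 in limma). Of the 11 constitutive genes 6 were called higher in MIA PaCa-2, among them HSP90AB1 (-1.37), HSPA8 (-1.18) and BAG2 (-1.55), an inhibitor of the ubiquitin ligase CHIP, while BAG1 was called higher in PSN-1 (1.22) and HSPA14, DNAJA1, DNAJC7 and STIP1 were not called. HSF2 was called higher in MIA PaCa-2 (-0.49, adjusted p = 0.035 in limma). HSF1 was not called (-0.32, adjusted p = 0.0685 in limma, 95% interval -0.61 to -0.024 before adjustment).

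The mitochondrial and CCT genes differed less between the lines. HSPD1 and HSPE1, which form the mitochondrial chaperonin and its lid, had differences of -0.52 (called) and -0.33 (not called), and HSPA9, the mitochondrial HSP70, of -0.32 (called). Among CCT subunits TCP1 (-0.74), CCT4 (-0.37) and CCT7 (-0.36) were called higher in MIA PaCa-2 and CCT2 (0.99, SE 0.11, adjusted p = 0.00138 in limma) higher in PSN-1. CCT3, CCT5 and CCT8 were not called, with 95% intervals of -0.49 to 0.017, -0.35 to 0.18 and -0.37 to 0.14. Of the CCT subunits outside the set, CCT6B was at 7.45 and 7.46 FPKM in MIA PaCa-2 scramble and mimic and at 0.513 and 1.07 in PSN-1, too low there for the fit. CCT6A was at 182 and 160 FPKM in MIA PaCa-2 scramble and mimic and at 122 and 135 in PSN-1 (-0.40, called).

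**Figure D3:**
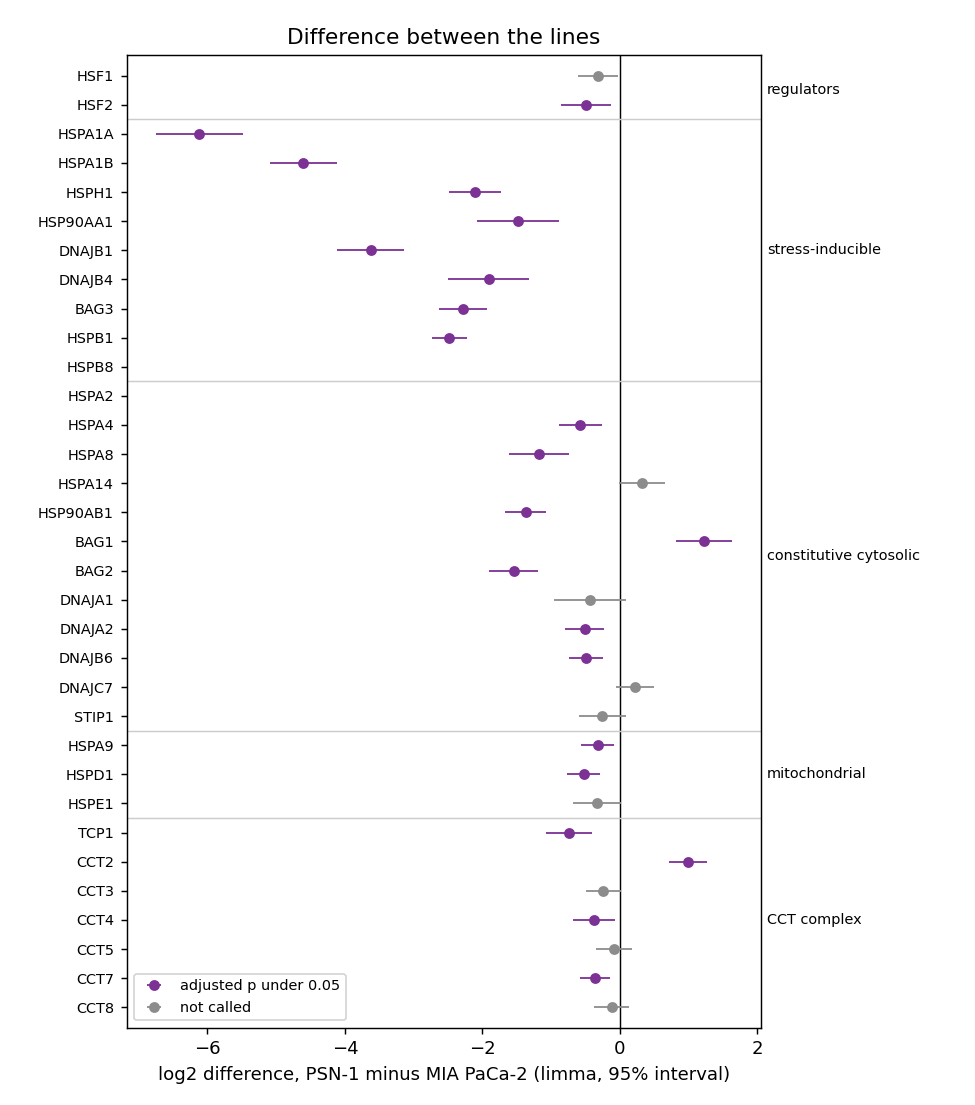
Log2 difference between the lines (x axis, PSN-1 minus MIA PaCa-2, so points left of 0 are higher in MIA PaCa-2) for each gene, with the limma estimate and its 95% interval from 4 libraries. Purple points have an adjusted p under 0.05 and grey points do not, and HSPB8 and HSPA2 were too low in MIA PaCa-2 to be fitted. The 8 stress-inducible genes run from -6.12 for HSPA1A to -1.48 for HSP90AA1.

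With the mimic, most of the set was lower in MIA PaCa-2. There 25 of the 31 measured genes were lower than with the scramble and 6 were higher, with a median change of -0.26, while over all 11484 measured genes 47.8% were lower and the median was 0.014. The sizes were modest: 3 genes (9.68%) were lower past 1.5-fold, where 4.06% of all measured genes were, and 0 were higher past 1.5-fold, where 5.43% were. These 3 were DNAJB4 (57.6 against 91.7 FPKM, -0.66), HSPA1A (687 against 1055 FPKM, -0.62) and HSPB1 (1047 against 1582 FPKM, -0.60). They compare 1 pair of libraries, and no test within a line can be made.

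All 8 measured stress-inducible genes were lower with the mimic in MIA PaCa-2, from -0.66 for DNAJB4 to -0.14 for HSPH1, with a median of -0.34. HSPA1A and HSPA1B together went from 1522 FPKM with the scramble to 1066 with the mimic (-0.51). BAG3 (-0.37), DNAJB1 (-0.32) and HSP90AA1 (-0.26) lay between. The constitutive class had 7 of 11 lower and a median of -0.30: HSPA14 (-0.42), HSPA8 (-0.36), HSP90AB1 (-0.35), BAG2 (-0.35), DNAJA1 (-0.34), STIP1 (-0.30) and HSPA4 (-0.15), an HSP110. The 4 that were higher were DNAJB6, a J-domain protein that holds back aggregation (247 against 183 FPKM, 0.43), BAG1 (0.21), DNAJC7 (0.11) and DNAJA2 (0.071).

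The mitochondrial genes were split in MIA PaCa-2. HSPA9 had 278 FPKM in the mimic library against 201 in the scramble library (0.46), the highest change of the set there, while HSPE1 was at 102 against 137 FPKM (-0.43) and HSPD1 at 668 against 735 FPKM (-0.14). All 7 CCT subunits were lower, by small amounts: TCP1 (-0.27), CCT4 (-0.22), CCT2 (-0.17), CCT7 (-0.12), CCT8 (-0.11), CCT5 (-0.10) and CCT3 (245.6 against 246.5 FPKM, -0.0051), a median of -0.12. The value of CCT3 is far below its counting error, and so its sign carries no information.

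In PSN-1 most of the set was higher with the mimic. Of 33 measured genes 28 were higher and 5 lower, with a median of 0.18, against 47.6% higher and a median of -0.016 over all 12233 measured genes. Past 1.5-fold 2 genes (6.06%) were higher, against 3.17% of all genes, and 1 (3.03%) was lower, against 3.87%. HSP90AA1 had 862 FPKM in the mimic library against 475 in the scramble library (0.86) and DNAJA1 at 281 against 186 FPKM (0.59), while HSPB8 was at 1.36 against 3.47 FPKM (-0.92), a low gene in which few fragments count. With a pseudocount of 5, HSP90AA1 (0.85) was the 1 higher gene past 1.5-fold, DNAJA1 (0.58) lay just under it, and HSPB8 (-0.41) was not past it.

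Of the 9 stress-inducible genes 7 were higher with the mimic in PSN-1, with a median of 0.43. DNAJB1 was at 214 against 144 FPKM (0.57), HSPA1A at 13.6 against 9.26 FPKM (0.51), HSPA1B at 19.5 against 13.5 FPKM (0.50), HSPH1 at 72.4 against 53.4 FPKM (0.43), DNAJB4 at 20.9 against 16.5 FPKM (0.32) and BAG3 at 60.6 against 55.8 FPKM (0.12). HSPB1 was lower (212 against 249 FPKM, -0.23). At 13.6 FPKM with the mimic, HSPA1A in PSN-1 was still 50.5-fold below its level in the MIA PaCa-2 mimic library.

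The constitutive class had 10 of 12 higher in PSN-1 and a median of 0.20. After DNAJA1 came BAG1 (17.8 against 12.2 FPKM, 0.51), HSPA2 (0.47), HSPA8 (1153 against 844 FPKM, 0.45), DNAJB6 (0.25), STIP1 (0.21), HSPA4 (0.20), HSP90AB1 (0.12), DNAJC7 (0.11) and DNAJA2 (0.037). HSPA14, a ribosome-bound HSP70 (-0.20), and BAG2 (-0.13) were lower. The 3 mitochondrial genes were higher, HSPA9 by 0.27, HSPD1 by 0.18 and HSPE1 by 0.061. All 7 CCT subunits were higher, from 0.27 for CCT3 (229 against 189.6 FPKM) to 0.0051 for CCT7 (209.8 against 209 FPKM), with a median of 0.15. The value of CCT7 is far below its counting error, so its sign carries no information. In PSN-1, genes with GC-rich 3' UTRs tended to have lower changes (Spearman correlation -0.219 over 11062 genes, which share libraries and are not replicates), and the 33 genes have a median GC content of 37.5% there against 42.9% over all symbols. After subtraction of that trend, which was added once the values were known, the set's median was 0.16 and 28 of 33 were higher. Only the longest annotated 3' UTR entered, and the part of GC content in the PSN-1 changes was not tested.

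**Figure D4:**
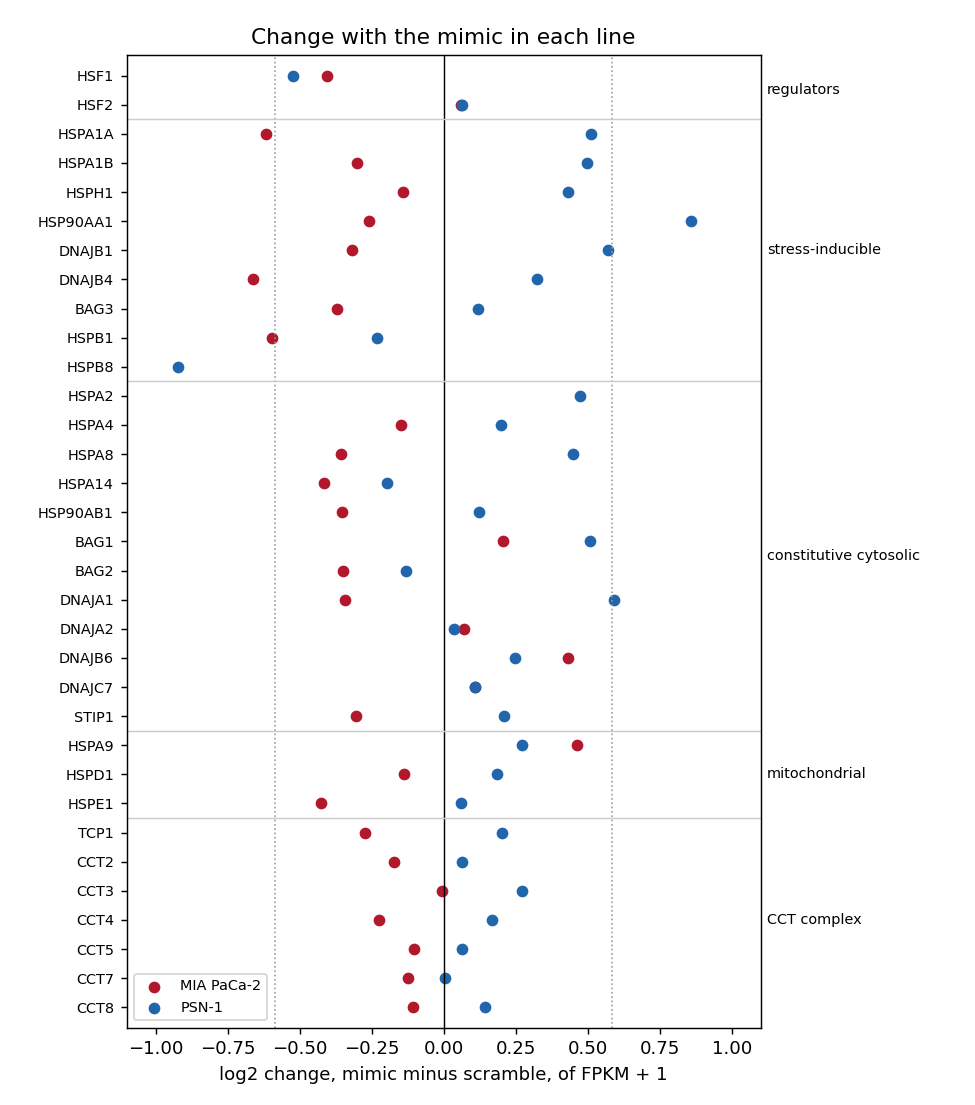
Log2 change of FPKM + 1, mimic minus scramble (x axis), of each gene in MIA PaCa-2 (red) and PSN-1 (blue), 1 pair of libraries a point, with dotted lines at 1.5-fold. Most red points lie left of 0 and most blue points right of it, with HSF1, HSPB1, HSPA14 and BAG2 left of 0 in both lines and HSF2, BAG1, DNAJA2, DNAJB6, DNAJC7 and HSPA9 right of 0 in both.

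Side by side, 21 of the 31 genes measured in both lines were lower with the mimic in MIA PaCa-2 and higher in PSN-1, and 0 went the opposite way. Over all 10678 genes measured in both, 19.96% were lower in MIA PaCa-2 and higher in PSN-1 and 24.3% the reverse. The 21 held 7 of 8 stress-inducible genes, 5 of 11 constitutive ones, 2 of 3 mitochondrial ones and 7 of 7 CCT subunits. The 7 include CCT3 (-0.0051 in MIA PaCa-2) and CCT7 (0.0051 in PSN-1), whose signs there carry no information. Among genes higher in both lines, HSF2 (0.059 and 0.064) and, in PSN-1, DNAJA2 (0.037) also lay within the counting error of a 2 kb transcript. In size the classes were not alike: the stress-inducible median exceeded that of CCT by 0.29 in PSN-1 and lay 0.22 below it in MIA PaCa-2. Against the constitutive class the stress-inducible median was 0.23 higher in PSN-1 and differed by -0.039 in MIA PaCa-2. With 1 library for each combination, the difference between the lines' changes could not be tested. Among scramble libraries the set's share of summed FPKM was higher in MIA PaCa-2 than in PSN-1. Against the scramble, the mimic library had a lower share in MIA PaCa-2 and a higher one in PSN-1. The same scramble values enter the level and the change, so the gaps that follow restate these changes. The 66.8-fold gap in the HSP70 pair was 32.1-fold with the mimic and the 16.9-fold gap in DNAJB1 was 9.09-fold. Not every gap narrowed. CCT2, higher in PSN-1, went from 1.85-fold among scramble libraries to 2.18-fold among mimic libraries, and BAG1 from 2.31-fold to 2.84-fold. The gaps of DNAJB6, HSPA9, HSF1 and DNAJA2, higher in MIA PaCa-2, also widened. So did those of HSPA14 (1.17-fold to 1.37-fold) and HSPA2, higher in PSN-1, the latter near 0 in MIA PaCa-2.

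The genes with the 3-unit heat shock element did not stand apart in direction. Of those 6, 5 were lower in MIA PaCa-2 (median -0.30) and 6 higher in PSN-1 (median 0.35). Of the remaining genes with a window, 18 of 23 measured in MIA PaCa-2 were lower (median -0.17) and 22 of 25 in PSN-1 were higher (median 0.17). DNAJB6 was the gene with the 3-unit form that was higher in both lines. Only 1 of the 9 stress-inducible genes with a window held this form, and HSPA1A, HSPA1B, DNAJB1, HSPH1 and BAG3 stood among the remaining genes. The split therefore cannot separate genes that HSF1 raises from others.

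A mean effect of the mimic over the lines was estimated in limma with the line as a block. It called 0.0562% of 10678 genes higher and 0.00937% lower, and 0 of the 31 chaperone genes tested. At an unadjusted p under 0.05 there were 4 (12.9%), HSPB1, HSF1, HSPA9 and DNAJB6, where 9.93% of all genes tested were, so this count is near the background and the values of the 4 are given as a description. HSF1 had 45.7 (mimic) and 60.9 FPKM (scramble) in MIA PaCa-2 and 34.9 and 50.7 FPKM in PSN-1, a mean log2 change of -0.47 (SE 0.12, adjusted p = 0.329 in limma). HSPB1 had a mean of -0.41 (SE 0.10, adjusted p = 0.318), HSPA9 of 0.37 (SE 0.0955, adjusted p = 0.331) and DNAJB6 of 0.34 (SE 0.098, adjusted p = 0.371 in limma). HSF2 was at 14.3 against 13.7 and 9.91 against 9.44 FPKM (mean 0.061). Because most of the set moved in opposite directions in the lines, its shared means lie near 0: HSPA1A at -0.054 (95% interval -0.69 to 0.58), HSPA8 at 0.047 (-0.39 to 0.48) and DNAJA1 at 0.12 (-0.40 to 0.65). These intervals do not show that the mimic had no effect on the genes.

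Other chaperone genes, from lists drawn up with the set, did not all share its pattern. Of 19 HSP90 cochaperones 11 were lower in MIA PaCa-2 (median -0.14) and 13 higher in PSN-1 (median 0.064). CACYBP, a partner of HSP90 and of ubiquitin ligases, was lower in both (35.8 against 55.9 FPKM, -0.63, and 24.0 against 35.6 FPKM, -0.55), and CHORDC1 was at 58.8 against 41.4 FPKM in PSN-1 (0.50). Of 12 genes of prefoldin, which hands clients to CCT, and of other CCT cofactors, 8 were higher in MIA PaCa-2 (median 0.11), where 52.2% of all measured genes were, and 7 were lower in PSN-1 (median -0.056), where 52.4% were. PFDN6 was lower in both (-0.41 and -0.37). The 13 tubulin and actin genes, clients of CCT, had medians of -0.17 and 0.052 in MIA PaCa-2 and PSN-1. TUBB2B was higher past 1.5-fold in both lines (30.3 against 15.7 and 2.34 against 1.22 FPKM), TUBB2A was at 13.3 against 9.37 FPKM in PSN-1 (0.46), and TUBA1B (-0.50) and TUBA4A (-0.45) were among the lower genes there. None of the genes in these lists was called in the shared fit by limma.

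Chaperones of the endoplasmic reticulum, which answer to other stress sensors, differed between the lines in the other direction. Of 15 such genes 14 were called higher in PSN-1 (limma, adjusted p under 0.05), where 24.2% of all 10678 genes tested were. Their median difference was 0.95 (median of all genes -0.035). HSPA5, the reticulum's HSP70, was at 239 and 319 FPKM in MIA PaCa-2 scramble and mimic and at 776 and 831 in PSN-1. SERPINH1, a collagen chaperone and the one gene of the list called higher in MIA PaCa-2, was at 611 and 407 against 132 and 114 FPKM, and it was named after its values were seen. With the mimic, 11 of the 15 were higher in MIA PaCa-2 (median 0.20) and 10 in PSN-1 (median 0.066), while SDF2L1 was lower past 1.5-fold in both (-0.61 and -0.65). The heat shock set and the reticulum's chaperones thus had opposite signs of their median change in MIA PaCa-2 and the same sign in PSN-1.

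The 13 stress genes that are not chaperones were mixed, with medians of -0.0024 (MIA PaCa-2) and -0.015 (PSN-1), both near 0. HMOX1, heme oxygenase, was at 568 against 95.7 FPKM with the mimic in MIA PaCa-2 and at 45.7 against 24.9 FPKM in PSN-1, and ATF3, a stress transcription factor, at 66.2 against 34.6 and 99.7 against 41.7 FPKM, both past 1.5-fold higher in both lines. In MIA PaCa-2, TRIB3 (1.09) and SQSTM1 (0.66) were higher, and GADD45B (-0.69), PPP1R15A (-0.64) and ZFAND2A, a proteasome adaptor induced by HSF1 (62.2 against 97.3 FPKM, -0.64), were lower, so that higher and lower stress genes stood in the same library. GADD45B was higher in PSN-1 (62.6 against 42.6 FPKM, 0.54). HSPA1L, an HSP70 gene next to HSPA1A, had 11.7 (mimic) and 23.9 FPKM (scramble) in MIA PaCa-2 (-0.97) and 1.45 and 0.575 FPKM in PSN-1 (0.64). These are the directions of its neighbours, and close HSP70 copies can share reads.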

How the data were processed

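Each deposited file holds 1 library as FPKM by gene symbol, per the file headers. TopHat2 2.1.1, Cuffdiff 2.2.1 and hg19 appear in the submitters' processing notes, without their roles. Annotation, strandedness in counting and between-library scaling were not given in those sources. Per the labels' protocols, libraries came from a stranded poly(A) kit. FPKM divides by the library total, so abundant genes move others. Within a line, changes of log2(FPKM + 1) were computed without a test. Shared and line effects came from limma 3.58.1 (R 4.3.3), with lmFit and a trended eBayes, two-sided. Genes averaging 1 FPKM or more in both lines were fitted, with adjusted p-values over all of them. The fit was tried on simulated data with a mimic effect equal in both lines. That trial covered neither the line effect nor changes that oppose each other in the lines. Pairing is by line, and the labels carry no replicate numbers. Depth came from 66 to 78 single-transcript genes in the modal bin, assuming 200-base fragments, and errors from it cover counting only. Members and lists were chosen with earlier results of these data known, and all 33 were named; of the other lists, genes past 1.5-fold in both lines and the 5 highest and 5 lowest per line at a mean of at least 5 FPKM. Lists not described in the report were other HSP70 and exchange factors (medians -0.092 and 0.040, MIA PaCa-2 first), other J-domain proteins (0.035 and 0.10), other small heat shock proteins (2 and 1 of 9 measured) and other mitochondrial chaperones and proteases (-0.042 and 0.0093). Python 3.11.15 was used with pandas 2.3.3.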

Additional observations from a re-analysis of the deposited data

Results flagged for a closer look

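For 6 genes the mimic library was lower than the scramble library in MIA PaCa-2 and higher in PSN-1 by at least 1.2-fold each, a minimum chosen with the results known. The changes were -0.62 and 0.51 for HSPA1A, -0.30 and 0.50 for HSPA1B, -0.32 and 0.57 for DNAJB1, -0.66 and 0.32 for DNAJB4, -0.36 and 0.45 for HSPA8 and -0.34 and 0.59 for DNAJA1, MIA PaCa-2 first. No gene of the set did the reverse at that size, and 1.67% of all genes measured in both lines met the same limits in the same directions. The difference between the lines was not tested, since each change rests on 1 pair of libraries. HSPA1A and HSPA1B can share reads and count as 1 measurement.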

How the results depend on the processing

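Pseudocounts of 0.1 and 5 and filters of 0 and 5 FPKM cannot change the sign of a change within a line. Signs could differ only under median-ratio scaling (64 values), TPM scaling (64) and, for HSPA1A and HSPA1B, their sum (4). There all member changes kept their sign (0 of 386 values changed sign over all settings, most of them fixed in advance). The count of genes lower in MIA PaCa-2 and higher in PSN-1 was 21 or 22. In PSN-1, a pseudocount of 5 left 1 gene higher and 0 lower past 1.5-fold, and the 5 FPKM filter 0 lower. The shared limma fit called 6 genes higher and 1 lower; the counts were 10 and 6 with a pseudocount of 5, 13 and 10 with TPM scaling, and 0 and 0 both without a filter (705 and 628 with an unadjusted p below 0.05) and without the line as a block (28 and 26). The 5 FPKM filter gave 2 lower and the fit without a variance trend 0 lower. It called 0 chaperone genes in every setting (0 to 4 with an unadjusted p below 0.05). Between the lines, the fit without a filter called 0 genes higher and 0 lower, and so 0 and 0 of the set, against 4399 and 3404 with an unadjusted p below 0.05; the cause was not tested. Elsewhere 17 to 20 of the set were called higher in MIA PaCa-2 and 2 higher in PSN-1. No paired analysis was possible beyond the line as a block because the labels give no replicate numbers. Depth limits HSPB8 and HSPA2.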

Other observations

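HSPA6, an HSP70 gene that is silent in most unstressed cells and strongly heat-induced, was not in the set and was named after its values were seen. It was at 93.8 and 77.1 FPKM in the MIA PaCa-2 scramble and mimic libraries and at 0.183 and 1.48 FPKM in those of PSN-1. The ratio between the lines was 512 among scramble libraries and 52.0 among mimic libraries, and its mean in PSN-1 was too low for the fit. UBB, a ubiquitin gene, was also higher in MIA PaCa-2, at 1339 and 1127 against 479.5 and 456 FPKM (log2 difference -1.39, adjusted p = 0.000228 in limma). DNAJC3, a J-domain protein of the endoplasmic reticulum, was at 7.64 and 9.83 FPKM in MIA PaCa-2 and at 43.8 and 53.4 FPKM in PSN-1 (2.35, adjusted p = 0.000245 in limma). UBB and DNAJC3 were likewise chosen after their values were seen.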
